A study of Stylosanthes guianensis with 6 samples.

Results

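Among the unigenes that the study lists as phosphatases, 93 of 116 carry a description that names neither a purple acid phosphatase nor a phytase, and these 93, of 173014 unigenes in the deposited tables, are described here. The members had been selected on the measured difference between low and high phosphorus in these same libraries, because the study drew its list from unigenes that passed its test. The differences between the 2 treatments given below are therefore a description, with no test. The study predicted its listed unigenes to be phosphatases by gene ontology analysis. Whether that label holds for the 93 members was not tested, and only the words of their descriptions were used. Only 24 descriptions name a phosphatase, 7 name a protein related to one (2 stem 28 kDa glycoproteins and 5 kinases of inositol pyrophosphates), 43 name another kind of protein and 19 give no informative name. None names a protein phosphatase 2C, the largest family of plant protein phosphatases.

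Roots of stylo (Stylosanthes guianensis), a tropical forage legume, were taken from cultivar RY2 grown in hydroponics for 21 d without phosphate, at 0 μM KH2PO4 (LP, 3 libraries), or at 250 μM KH2PO4 (HP, 3 libraries). Each library stood for 1 box of 3 seedlings, and both treatments shared the cultivar and the time of treatment. Whole roots were sequenced, so fewer cells of a type and less RNA per cell cannot be told apart. In the labels, the phosphorus field has 250 μM for the LP titles and 0 μM for the others, opposite to the study's methods, and the titles and methods were followed.

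Under phosphorus starvation, plants release phosphate from their own metabolites and from organic compounds outside the root. Phosphatases serve both ends. Some act on pyrophosphate, sugar phosphates or phosphorylated starch inside the cell, others on proteins or on signalling molecules, and the secreted purple acid phosphatases, not covered here, act outside. Pyrophosphatases split pyrophosphate, a by-product of many syntheses, into phosphate. Inositol pyrophosphates are phosphate-rich small molecules that bind SPX domain proteins and report the phosphate state of the plant cell.

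The estimated counts summed to between 20643446 and 21784888 per LP library and between 15586353 and 17821019 per HP library. Levels are given in FPKM, a read count scaled to library size and unigene length, which corrects for unigene length. Log2 fold changes are LP over HP from a fit of edgeR to the counts of all 62040 unigenes that passed a filter on low counts. Calls required both an adjusted p under 0.05 and a log2 fold change of 1 or more in either direction. Of the members, 89 passed the filter and 73 were called, 34 higher and 39 lower under LP, where 13.2% of all tested unigenes were called (6.09% higher and 7.1% lower). DESeq2, the tool the study used, called 82 of the 89, 41 higher and 41 lower, where it called 15.5% of all tested unigenes (7.23% higher and 8.31% lower). Because the list was made from this contrast, nothing is read from these shares, nor from the counts of calls by class given below. Of the 89 members, 45 had a higher and 44 a lower estimate under LP. The median log2 fold change was 1.04 over the 89 members and 0.03 over all tested unigenes. With the list split in this way, the median is its smallest positive estimate, that of Cluster-8255.63927, which the study's threshold sets. Nothing is read from its distance to 0.03. Estimates ranged from -7.39 to 7.83 among members that had over 3 reads under LP and under HP. In DESeq2, the members just inside its threshold were Cluster-8255.64295 at -1.04, Cluster-8255.103699 at -1.04 and Cluster-8255.63927 at 1.04, and unigenes just outside it carry no description and were not analysed here.

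The classes of description did not share a direction. Of the 24 unigenes named as phosphatases, 22 had the higher level under LP and 2 the lower, whereas 22 of the 62 without such a name, or a name related to one, were higher and 40 lower. The 23 purple acid phosphatase and phytase unigenes of the same list stood at 21 higher and 2 lower. In 46 of the 93 members every LP library lay above every HP library, in 45 every LP library lay below, and in 2 the treatments overlapped, while 42.4% of all tested unigenes did not overlap (20.6% with LP above, 21.8% with LP below).

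**Figure D1:**
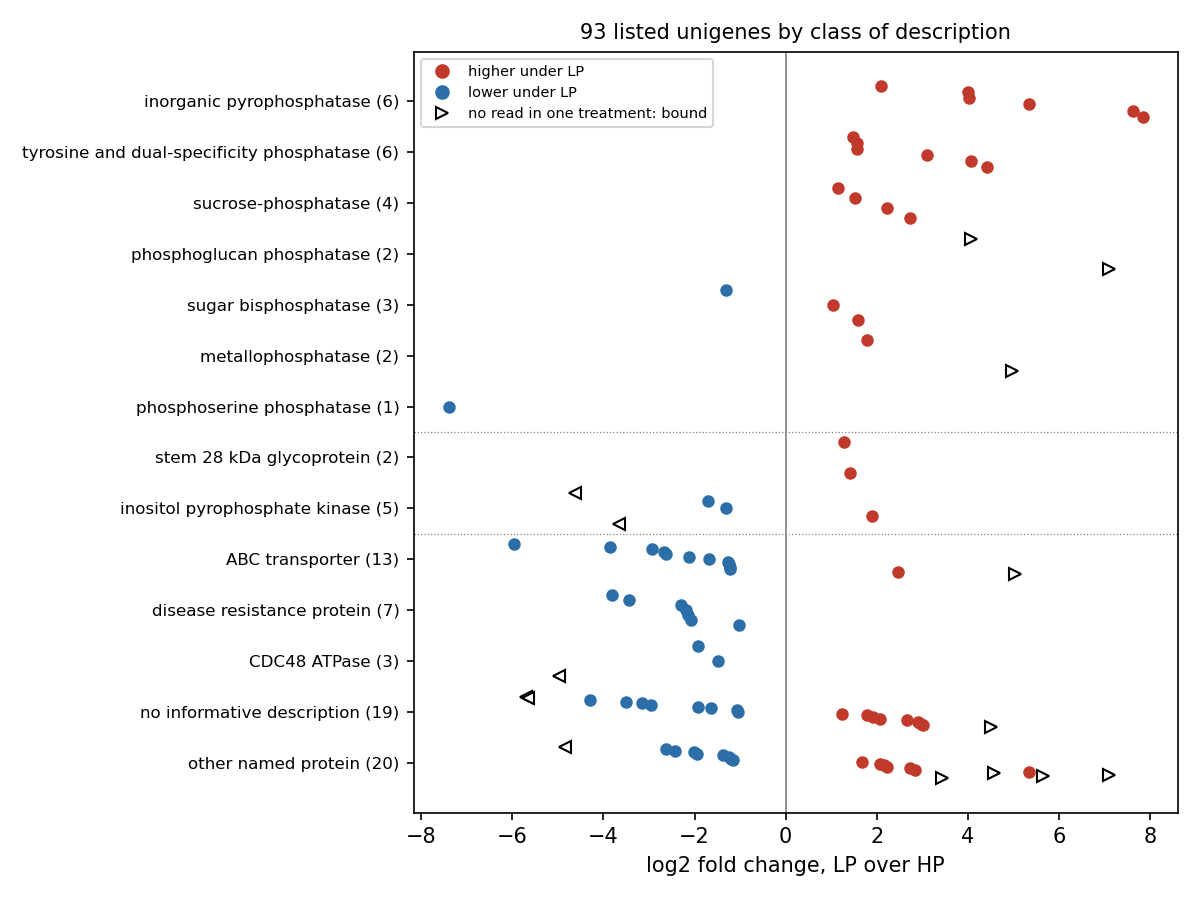
Log2 fold change (LP over HP, horizontal axis) of the 93 members, 1 symbol each, by class of description, with the number of members in brackets. Circles are edgeR estimates, red higher and blue lower under LP, and open triangles are bounds for members with no read in one treatment; every pyrophosphatase, tyrosine and dual-specificity phosphatase and sucrose-phosphatase lies right of 0 and every disease resistance unigene left of it.

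The 6 unigenes named as inorganic pyrophosphatases made up most of the expression of the list under LP, where all 93 members summed to 1595 FPKM in the mean. Their summed level was 878 ± 128 FPKM under LP and 22.2 ± 3.96 FPKM under HP (SD, n = 3 each), a ratio of 39.5. The summed level of all 24 named phosphatases was 1154 ± 142 FPKM under LP and 121 ± 6.02 FPKM under HP. The pyrophosphatase class rests on names alone, and which substrate these enzymes split was not tested. The most abundant, Cluster-8255.105551, matches At1g17710 of Arabidopsis. The protein database names that match inorganic pyrophosphatase 2, a name that does not by itself establish its substrate. Cluster-8255.105551 had 559, 552 and 698 FPKM under LP, against 2.2, 4.39 and 2.79 FPKM under HP. All LP libraries lay far above all HP libraries, with a log2 fold change of 7.61 (7.44 to 7.94 with each library left out in turn). By mean FPKM it ranked 115th of 173014 unigenes under LP and 30765th under HP.

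Its neighbour by identifier, Cluster-8255.105552, named as pyrophosphatase 1-like and with the same Arabidopsis match, had 41.9, 46.9 and 63.6 FPKM under LP, against 0.06, 0.47 and 0.14 FPKM under HP. The log2 fold change was 7.83, and without HP replicate 2, the highest of the HP libraries, it was 8.87. The second in level was Cluster-8255.22101, with 159, 174 and 212 FPKM under LP, against 10.6, 14.5 and 9.15 FPKM under HP, with a log2 fold change of 4.0. It shares its description with Cluster-8255.22102 (5.35) and Cluster-8255.22103 (4.01), both of far lower level. The sixth, Cluster-8255.105349, had 25.5, 30.4 and 29.9 FPKM under LP, against 5.42, 6.95 and 7.88 FPKM under HP. Its log2 fold change of 2.09 was the smallest of the class. Its counts were whole numbers in all 6 libraries, with no sign of reads divided between it and another unigene, whereas the other 5 all held divided reads. In 5 of the 6 unigenes, the highest LP level was in LP replicate 3.

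The proteins named as tyrosine or dual-specificity phosphatases numbered 6, and all were higher under LP, 5 of them past the thresholds. Of these, 5 are named after At1g05000 of Arabidopsis, an atypical dual-specificity phosphatase that removes a phosphate from inositol pyrophosphates in vitro. Their summed level was 162 ± 9.19 FPKM under LP and 37.6 ± 2.28 FPKM under HP (SD, n = 3 each), a ratio of 4.31. The members were of 2 kinds. Cluster-8255.67013 had 43.8, 49.3 and 47.4 FPKM under LP, against 15.4, 16.5 and 19.3 FPKM under HP. Cluster-8255.58949 had 41.2, 37.9 and 43.2 FPKM under LP, against 14.8, 14.2 and 12.6 FPKM under HP. These 2 share 1 soybean match, were already well expressed under HP, and differed by log2 fold changes of 1.47 and 1.57.

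A second pair, also with 1 soybean match in common, was low under HP. Cluster-8255.110732 had 39.6, 42.3 and 49.9 FPKM under LP, against 3.95, 5.72 and 5.88 FPKM under HP. Cluster-8255.115658 had 26.6, 26.8 and 29.0 FPKM under LP, against 0.96, 1.66 and 1.24 FPKM under HP. Their log2 fold changes were 3.10 and 4.42. Under LP the 4 levels lay within a narrow range, 27.5 to 46.8 FPKM in the mean, while under HP they lay between 1.29 and 17.1 FPKM. The fifth, Cluster-8255.13534, was scarce, with 51, 61 and 43 reads under LP, against 0, 0 and 7 reads under HP. Its log2 fold change of 4.06 was not past the thresholds, and it was 8.57 without HP replicate 3, the only HP library with reads. Cluster-8255.54403, named after IBR5, a MAP kinase phosphatase of Arabidopsis that acts in auxin responses, had 5.44, 4.34 and 4.58 FPKM under LP, against 1.78, 1.58 and 1.56 FPKM under HP, with a log2 fold change of 1.56.

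A unigene with no informative name in the list ran against these. Cluster-8255.39199 is described there as a hypothetical protein of common bean, and the study's table of differing unigenes matches it to At1g05000. It had 0, 0 and 0 reads under LP, against 45, 47 and 32 reads under HP, and under LP it was at least 52.1-fold lower, taking 3 reads over the 3 LP libraries as the limit. It thus lies on the other side from the 5 unigenes that the list names after At1g05000, for which no such match was at hand.

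**Figure D2:**
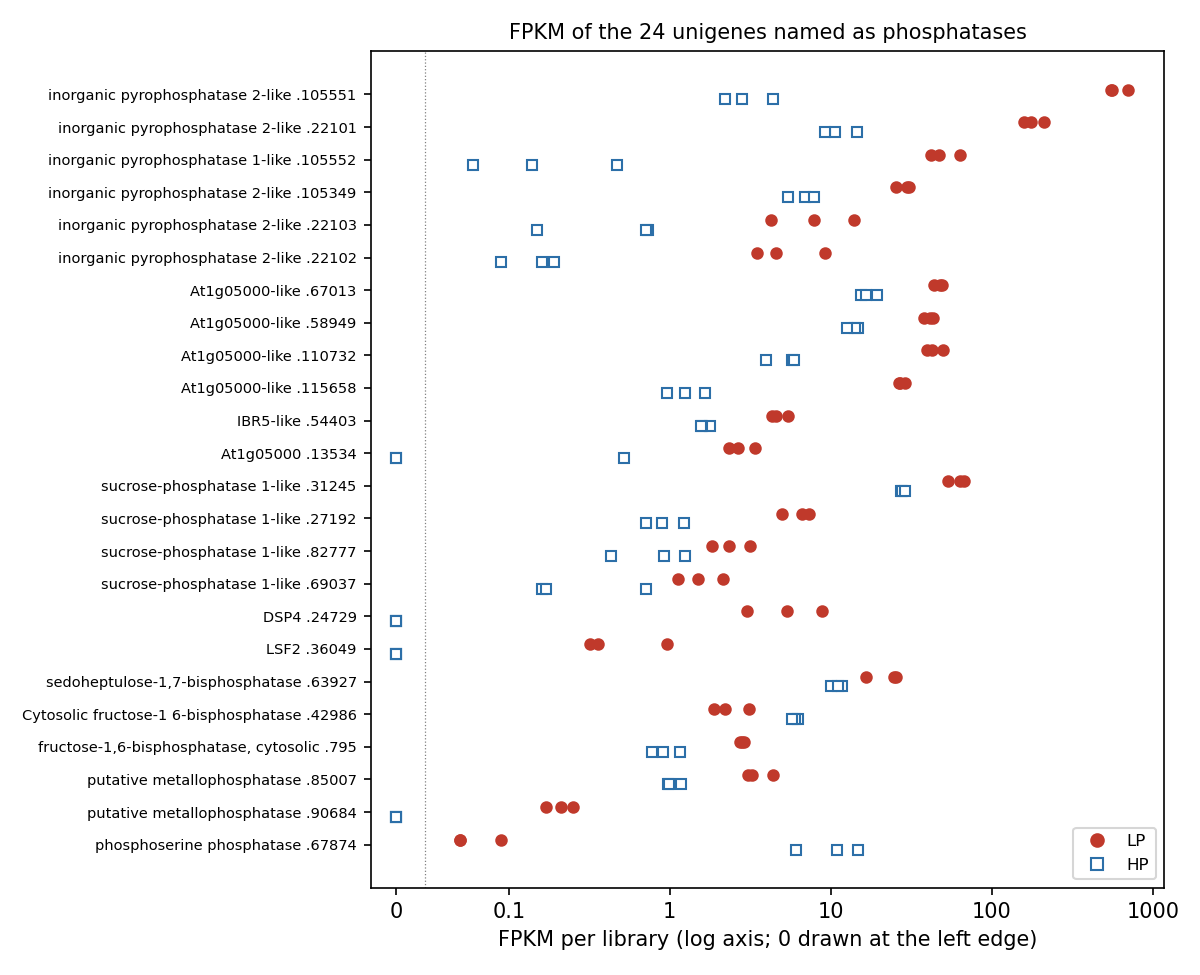
FPKM (log axis, 0 at the left edge) in each library of the 24 unigenes named as phosphatases, 1 row each with the identifier shortened to its last number, LP as red circles above HP as blue squares. In 22 rows the 3 LP libraries lie right of the HP libraries, and the exceptions are a cytosolic fructose-1,6-bisphosphatase and the phosphoserine phosphatase.

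The 4 unigenes named sucrose-phosphatase 1-like, the enzyme that frees sucrose from sucrose 6-phosphate, were higher under LP, 2 of them past the thresholds. Their summed level was 71.5 ± 6.65 FPKM under LP and 30.1 ± 0.811 FPKM under HP (SD, n = 3 each). One unigene, Cluster-8255.31245, held most of it in both treatments, 85.6% under LP and 92.8% under HP. It had 66.7, 53.2 and 63.7 FPKM under LP, against 27.2, 27.5 and 29.0 FPKM under HP, with a log2 fold change of 1.15. Cluster-8255.27192 had 7.29, 6.65 and 4.96 FPKM under LP, against 0.71, 1.23 and 0.89 FPKM under HP, with a log2 fold change of 2.73, the largest of the 4. The other two, Cluster-8255.82777 and Cluster-8255.69037, had estimates of 1.53 and 2.22 that were not past the thresholds, and the second was 3.34 without HP replicate 2.

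Both phosphoglucan phosphatases, which take phosphate from starch so that it can be broken down, had no read under HP. Cluster-8255.24729, named DSP4-like, had 272, 88 and 160 reads under LP, against 0, 0 and 0 reads under HP. All its LP libraries had reads, and it was at least 138-fold higher under LP. Cluster-8255.36049, named LSF2-like, had 14, 12 and 37 reads under LP, against 0, 0 and 0 reads under HP, at least 16.7-fold higher, and its call was kept only without HP replicate 2 when single libraries were left out.

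The sugar bisphosphatases went both ways. Cluster-8255.63927, named sedoheptulose-1,7-bisphosphatase, an enzyme of the Calvin cycle in leaves, had 24.7, 16.6 and 25.3 FPKM under LP, against 9.97, 11.7 and 11.1 FPKM under HP. Its log2 fold change of 1.04 was close to the threshold, and fell below it without LP replicate 1 or LP replicate 3, at 0.97 and 0.93, while without HP replicate 3, at 1.04, it missed the adjusted p. Of 2 unigenes named as cytosolic fructose-1,6-bisphosphatase, an enzyme of sucrose synthesis and gluconeogenesis, Cluster-8255.795 had 2.72, 2.91 and 2.81 FPKM under LP, against 0.78, 1.15 and 0.91 FPKM under HP. Cluster-8255.42986 had 1.89, 2.2 and 3.09 FPKM under LP, against 6.27, 5.99 and 5.77 FPKM under HP. The first was higher under LP (log2 fold change 1.58) and the second lower (-1.31), and neither overlapped between treatments. Summed, the pair had 5.21 ± 0.650 FPKM under LP and 6.96 ± 0.244 FPKM under HP, a ratio of 0.748. The share of the more abundant unigene was 54.0% under LP, where it was Cluster-8255.795, and 86.4% under HP, where it was Cluster-8255.42986.

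The 2 metallophosphatases, matched to yellow lupin, were higher under LP. Cluster-8255.85007 had 3.23, 3.06 and 4.40 FPKM under LP, against 1.17, 0.97 and 0.99 FPKM under HP, with a log2 fold change of 1.79. Cluster-8255.90684 had 33, 39 and 47 reads under LP, against 0, 0 and 0 reads under HP, at least 31.5-fold higher. The study's table of differing unigenes matches Cluster-8255.90684 to an Arabidopsis purple acid phosphatase marked as inactive, so the boundary to that family is not sharp. The same holds for Cluster-8255.68890, described as a plastidial glucan phosphorylase and matched there to another inactive purple acid phosphatase. It had 125, 0 and 65 reads under LP, against 0, 0 and 0 reads under HP, and because LP replicate 2 had none it did not pass the filter.

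The single phosphoserine phosphatase, Cluster-8255.67874, which catalyses the last step of the phosphorylated route to serine, was the reverse of the pyrophosphatases. It had 3, 1 and 1 reads under LP, against 266, 131 and 330 reads under HP, with a log2 fold change of -7.39, the most negative of all members that had over 3 reads under LP and under HP, and -8.03 without LP replicate 1. Under LP its level was near 0 in every library.

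Stem 28 kDa glycoproteins are storage proteins of soybean that are related in sequence to acid phosphatases. Cluster-8255.78958 had 60.7, 44.4 and 64.1 FPKM under LP, against 20.9, 25.5 and 24.1 FPKM under HP. Cluster-8255.88300 had 21.3, 19.3 and 29.9 FPKM under LP, against 8.58, 7.01 and 11.4 FPKM under HP. Neither overlapped between treatments, and the log2 fold changes were 1.28 and 1.40.

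The 5 kinases named for inositol hexakisphosphate and diphosphoinositol-pentakisphosphate (PPIP5K, the enzymes that make inositol pyrophosphates and that carry a phosphatase domain as well) were all scarce. None exceeded 0.993 FPKM in the mean of the 6 libraries. Their summed level was 2.00 ± 0.227 FPKM under LP and 3.83 ± 0.403 FPKM under HP (SD, n = 3 each). Cluster-8255.87098 had 40, 66 and 50 reads under LP, against 108, 82 and 120 reads under HP (log2 fold change -1.32). Cluster-8255.96616 had 31, 42 and 43 reads under LP, against 103, 94 and 103 reads under HP (-1.70). Both lay below the HP libraries in every LP library, and the call of the first was lost without LP replicate 1 (-1.14), HP replicate 1 (-1.31) or HP replicate 3 (-1.19).

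The other two that were lower had no read under LP after rounding to whole reads, although the FPKM column lists Cluster-8255.19645 at 0.01 in LP replicate 2. Cluster-8255.18590 had 0, 0 and 0 reads under LP, against 10, 29 and 20 reads under HP, at least 24.8-fold lower under LP. Cluster-8255.19645 had 0, 0 and 0 reads under LP, against 11, 5 and 14 reads under HP, at least 12.6-fold lower. The second did not pass the filter, and the call of the first was lost without HP replicate 2 or HP replicate 3. The fifth, Cluster-8255.103199, was higher under LP, with 90, 82 and 87 reads under LP, against 43, 7 and 7 reads under HP. Its log2 fold change of 1.90 was not past the thresholds, and it was 3.24, and called, without HP replicate 1, which held most of the HP reads. Under the name of kinase 2-like, this unigene stood beside 2 that were lower, and the 3 together had 1.55 ± 0.140 FPKM under LP and 1.94 ± 0.208 FPKM under HP.

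**Figure D3:**
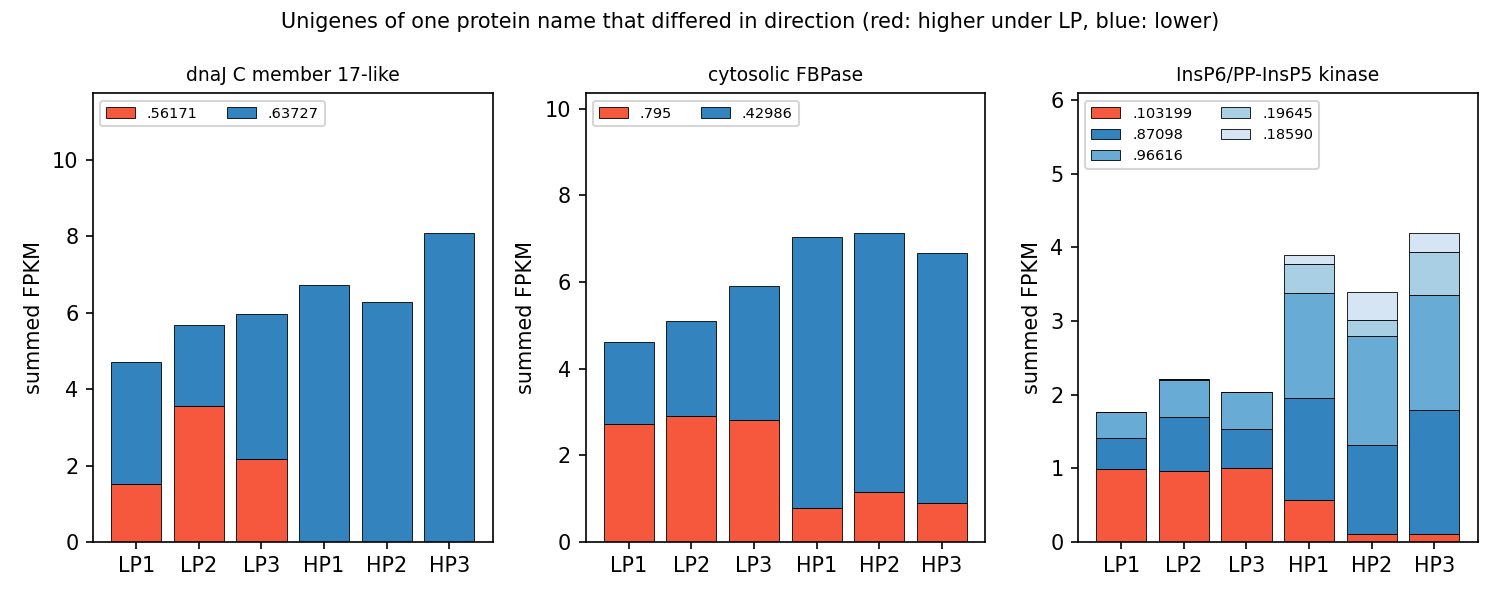
Summed FPKM (vertical axis, from 0) in each of the 3 LP and 3 HP libraries for dnaJ C member 17-like, cytosolic fructose-1,6-bisphosphatase (FBPase) and the PPIP5K unigenes, with each bar divided by unigene, red for unigenes higher and blue for unigenes lower under LP. The sums differ less than their parts: the dnaJ pair had 5.46 FPKM under LP and 7.04 FPKM under HP in the mean.

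Of 15 protein names that more than 1 member shared, 13 held members of 1 direction only and 2 held both, the kinase 2-like name above and the dnaJ homolog subfamily C member 17-like name, of a co-chaperone. Of the dnaJ pair, Cluster-8255.56171 had 113, 249 and 156 reads under LP, against 0, 0 and 0 reads under HP, at least 137-fold higher under LP. Cluster-8255.63727 had 233, 148 and 267 reads under LP, against 403, 329 and 443 reads under HP, with a log2 fold change of -1.19 whose call was lost without LP replicate 2 (-0.98) or HP replicate 3 (-1.09). Both match the same soybean transcript. Summed, the pair had 5.46 ± 0.652 FPKM under LP and 7.04 ± 0.942 FPKM under HP (SD, n = 3 each), and Cluster-8255.63727 made all of it under HP.

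ABC transporters, pumps that use ATP to move metabolites and hormones across membranes, formed the largest named class, with 13 unigenes, of which 2 were higher and 11 lower under LP, 2 and 9 of them past the thresholds. Their summed level was 50.2 ± 4.07 FPKM under LP and 130.1 ± 14.3 FPKM under HP. The most abundant, Cluster-8255.90810, named ABC transporter C family member 14-like, had 10.2, 10.4 and 9.75 FPKM under LP, against 47.7, 39.7 and 47.4 FPKM under HP, with a log2 fold change of -2.13. The largest decrease was in Cluster-8255.47177, named pleiotropic drug resistance protein 1-like, with 1, 3 and 1 reads under LP, against 120, 62 and 90 reads under HP, with a log2 fold change of -5.97, which was -6.63 without LP replicate 2. All 6 unigenes named pleiotropic drug resistance were lower, but Cluster-8255.72633 and Cluster-8255.38775 were not past the thresholds. Cluster-8255.72633 (-1.23) had 143, 168 and 36 reads under LP, and no fit that left out a library called it. Cluster-8255.38775 (-2.94) had 33, 0 and 53 reads under LP. It was -3.76 without LP replicate 3, and -2.35, and called, without LP replicate 2. The largest increase was in Cluster-8255.49536, named ABC transporter G family member 32-like after an Arabidopsis pump of cutin precursors, with 24, 61 and 39 reads under LP, against 0, 0 and 0 reads under HP, at least 32.8-fold higher. The 4 members that the study also lists as transporters were Cluster-8255.90810, Cluster-8255.70117 (-2.63) and Cluster-8255.43945 (-3.86), all lower, and Cluster-8255.67304 (2.46), the C family member 9-like unigene, which was higher.

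**Figure D4:**
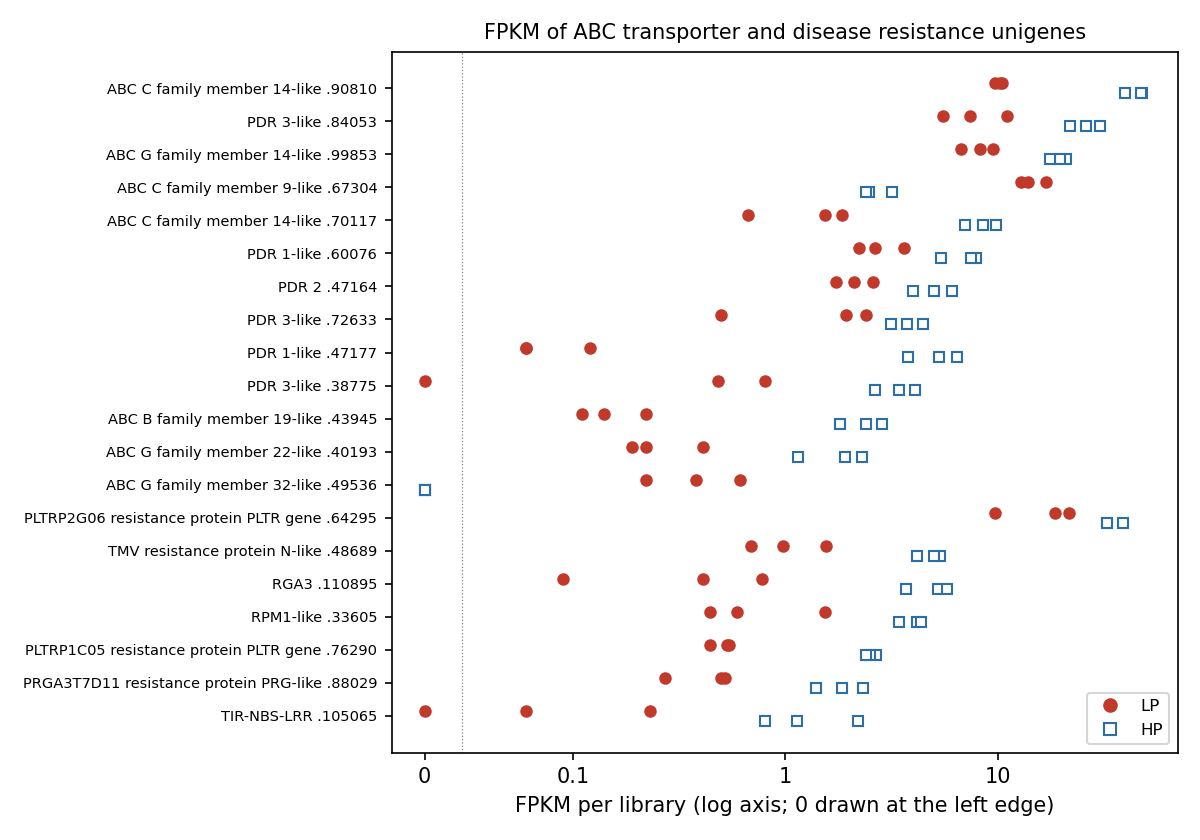
FPKM (log axis, 0 at the left edge) in each library of the 13 ABC transporter unigenes (PDR, pleiotropic drug resistance protein) and, below them, the 7 disease resistance unigenes, LP as red circles above HP as blue squares. LP lies left of HP in 11 and in 7 rows, and right of it for ABC C family member 9-like and ABC G family member 32-like.

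The 7 unigenes named as disease resistance proteins, the intracellular immune receptors of plants, were all lower under LP and all past the thresholds. Over all tested unigenes 7.1% were called lower, and as the list was chosen on this contrast, nothing is read from the count of these 7. The most abundant, Cluster-8255.64295, matched to a peanut resistance sequence, had 18.6, 9.70 and 21.8 FPKM under LP, against 38.8, 32.8 and 32.7 FPKM under HP. Its log2 fold change of -1.04 was at the threshold. It was -0.75 without LP replicate 2, the lowest LP library, and the call was kept only without LP replicate 3. The largest decrease was in Cluster-8255.105065, of the TIR-NBS-LRR class, with 4, 0 and 16 reads under LP, against 48, 59 and 120 reads under HP, with a log2 fold change of -3.82, which was -5.51 without LP replicate 3. Its call was lost in 4 of the 6 fits that left out a library, and kept without LP replicate 2 or LP replicate 3. The other 5 had log2 fold changes between -3.43 and -2.09. Among these, Cluster-8255.110895, named RGA3, was at -3.43, and at -4.10 without LP replicate 1, and its call was lost without LP replicate 2, HP replicate 1 or HP replicate 3, while Cluster-8255.33605, named RPM1-like, was at -2.19, and at -2.92 without LP replicate 3, the only one of these fits that kept its call. Both were named after their values were seen.

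The 3 unigenes named after CDC48, an ATPase that pulls proteins out of complexes and membranes, were lower under LP, 1 of them past the thresholds. Cluster-8255.73250 had 2.92, 2.28 and 2.51 FPKM under LP, against 7.19, 6.42 and 8.41 FPKM under HP, with a log2 fold change of -1.5. Cluster-8255.90436 had 14, 14 and 99 reads under LP, against 166, 102 and 121 reads under HP. Its estimate of -1.91 was not past the thresholds, and it was -3.53, and called, without LP replicate 3, which held most of the LP reads. The third, Cluster-8255.82112, had 0, 0 and 0 reads under LP, against 31, 44 and 0 reads under HP. It did not pass the filter, and as HP replicate 3 had no read either, the treatments overlapped.

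Among the 19 members without an informative description, 9 were higher and 10 lower under LP. The most abundant, Cluster-8255.103729, matched to a hypothetical protein of common bean, had 203, 161 and 217 FPKM under LP, against 23.3, 31.6 and 23.9 FPKM under HP, a level exceeded under LP by 1 member of the list only. Its log2 fold change was 2.90, and its rank by mean FPKM was 618 under LP and 6578 under HP. A neighbour with the same match, Cluster-8255.103727, was much lower in level and had an estimate of 1.92 that was not past the thresholds, and 2.89, and called, without HP replicate 3. The largest increase was in Cluster-8255.17569, with 26, 21 and 39 reads under LP, against 0, 0 and 0 reads under HP, at least 22.7-fold higher, and the most negative fitted estimate was that of Cluster-8255.39199, given above with its match to At1g05000. Its bound of 52.1-fold does not rank it against Cluster-8255.102534, also without reads under LP, at least 50.0-fold lower, which was named after its values were seen. One member, Cluster-33785.0, matches a hypothetical protein of Saprolegnia parasitica, a water mould. It had 27, 25 and 33 reads under LP, against 1, 2 and 5 reads under HP, and whether it came from the plant was not tested. It was named after its values were seen.

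Of the remaining 20 members with other protein names, 11 were higher and 9 lower. The most abundant was Cluster-8255.71860, named after KEG, a ubiquitin ligase that holds down abscisic acid signalling in Arabidopsis, with 7.50, 7.84 and 8.13 FPKM under LP, against 20.1, 14.3 and 18.9 FPKM under HP, with a log2 fold change of -1.16. The largest decrease was in Cluster-8255.105271, named after a subunit of the THO complex of mRNA export, with 0, 0 and 0 reads under LP, against 22, 30 and 16 reads under HP, at least 28.6-fold lower. The highest fitted estimate was that of the dnaJ unigene Cluster-8255.56171 above.

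In all, 15 members had no read in one treatment after rounding, 6 under LP and 9 under HP. Of the 6, Cluster-8255.39199 had the most reads under HP, 124 in the 3 libraries, and of the 9, Cluster-8255.24729 had the most under LP, 520 in the 3 libraries. Of these 15, 11 passed the filter and so were among the 89 tested members, where 0.983% of all tested unigenes had no read in one treatment. Nothing is read from this comparison, because the list was made from this contrast. The differences with zeros on one side rest on reads that the authors' program assigned among similar unigenes. Estimated counts were whole, to within 0.005 reads, in all 6 libraries for 13 of the 89 tested members (14.6%) and for 18.2% of all tested unigenes, so 80 of the 93 members held reads that had been divided. The members that share a name, above all those with neighbouring identifiers, may hold each other's reads, and the part of this in the results was not tested.

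Levels across the list were uneven. The mean FPKM over the 6 libraries lay between 0.105 and 303, with a median of 2.34, at least 10 in 19 members and under 1 in 26. The spread between libraries of a treatment, as the median SD of log2 CPM (counts scaled to library size), was 0.394 for the tested members and 0.392 for all tested unigenes. Of the 73 called members, 52 were called in each of the 6 fits that left out 1 library and 21 lost the call in at least 1. The 16 tested members that were not called all had treatments that did not overlap, where 42.4% of all tested unigenes did not. DESeq2 called 9 of these 16, where it called 15.5% of all tested unigenes. Because the list was made with DESeq2 from this contrast, nothing is read from either count. No member changed direction in any alternative fit.

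The length of a unigene as implied by the 2 deposited columns, which the choice of members had not used, was compared between treatments for the 29 members with at least 10 reads and 1 FPKM in every library. In limma on the log2 ratio of count to FPKM, 0 of 29 members were called, and 0 of 29 had an unadjusted p under 0.05, where 0 of 31254 unigenes (0.0%) were called and 967 had such a p. The largest shift among the members was 0.0036 on the log2 scale. Over all tested unigenes the median size of the shift was 0.0019, and 8 of 31254 shifted by at least 0.5. The ratio was thus nearly fixed for each unigene, so a call was hardly possible, and nothing is read from its absence. Without HP replicate 3, 7 members and 7906 unigenes had an unadjusted p under 0.05, and without LP replicate 3, 3 members and 2184 unigenes, with no member called in either fit.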

How the data were processed

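RNA-seq of LP and HP roots (3 libraries each) was analysed. Samples were grouped by title. According to the study's methods, the authors assembled the reads into unigenes with Trinity and deposited, for each unigene and library, estimated counts from RSEM, which are not normalized and not whole where a read was divided between unigenes. The deposited FPKM values were scaled by the authors for length and library size. The labels name Bowtie2 2.2.3. Whether counting used strand was not given in the sources used, which leaves overlapping and antisense unigenes uncertain. The labels' extraction text speaks of leaves, the tissue field and the study of roots. Root markers were not analysed here, since descriptions cover only the study's lists. No sequence of a unigene was used.

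Members were taken from the study's phosphatase list by description only, and classes by words in the description. The members and lists were chosen with earlier results of these data known. The named members are every phosphatase, stem 28 kDa glycoprotein and PPIP5K unigene, in each other class the most abundant, the largest increase and the largest decrease, same-name pairs of opposite direction, and the members without reads in one treatment that had the most reads; the 4 members also listed as transporters, and a few unigenes given beside these, were named after their values were seen.

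Rounded counts passed filterByExpr (minimum count 10), were scaled by TMM and fitted with the quasi-likelihood test of edgeR 4.0.16 (limma 3.58.1, R 4.3.3), with Benjamini-Hochberg adjustment over all tested unigenes. The scripts were checked on simulated data. Bounds take 3 reads over the group without reads as the limit and cover counting error only. Alternatives were DESeq2 1.42.0, size factors of the DESeq2 kind, library sizes alone, no filter, at least 1 CPM in 3 libraries, limma on log2(FPKM + 1) and log2(FPKM + 0.1), thinning to 15586189 counts, a block for the replicate number, and each library left out. For the length ratio they were a minimum of 5 FPKM, the adjusted p alone, the block and each library left out.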

Additional observations from a re-analysis of the deposited data

How the results depend on the processing

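The members' differences chose them, so these values show only how far the description depends on the processing. With all libraries 34 members were called higher and 39 lower under LP. Over all alternatives that kept the 6 libraries, the counts were 26 to 41 and 30 to 41, and with 1 library left out 29 to 36 and 27 to 38. The totals moved as well. Alternatives with the 6 libraries called 5167 to 9972 unigenes, with 49450 to 152344 tested. Fits with 1 library left out called 5586 to 8183, with 65816 to 69222 tested. No estimate of a named member changed sign. The phosphoglucan phosphatases had 1 estimate in place of 2 with the filter of 1 CPM and with thinned libraries, because Cluster-8255.36049 no longer passed the filter. Estimates of members with few reads in a treatment depended most on the fit, since limma on log2(FPKM + 1) shrinks them: of 655 estimates of 44 named members under the alternatives, 61 moved by more than the spread between libraries, 28 of them in that fit. Length calls among members stayed at 0 in every alternative.

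Little pairing by the replicate numbers of the titles was seen, and 3 libraries per treatment are too few to settle it. Same-numbered LP and HP libraries deviated from their treatment means with correlations of -0.01, 0.04 and 0.05, and LP replicates 2 and 3, but not LP replicate 1, correlated best with the HP library of their own number. With the replicate number as a block, 26 members were called higher and 30 lower, and 5167 of all unigenes were called against 8183 without it.

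Depth limits the scarce members: 26 of 93 had a mean under 1 FPKM, and the HP libraries were the shallower ones, so that a level of 0 under HP means only that no read was found at this depth.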
